A study of Mus musculus with 14 samples.

Results

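The Myc, Max and Mxd transcription factors form a network of proteins that share 1 type of DNA contact and compete for a common partner. The 9 genes described here are Myc, Mycn, Max, Mxd1, Mxd3, Mxd4, Mxi1, Mnt and Mlx. They were chosen by symbol, and all 9 have a row among the 37680 genes of the count table. RNA of colon epithelium was sequenced from 14 mouse libraries, in a study of how the epithelium of the colon answers injury when it lacks Smad4, the shared partner of the TGF-beta and BMP signal transducers. In the Smad4 IEC-KO groups (KO), mice with floxed Smad4 alleles (Smad4 f/f) carried a tamoxifen-inducible Cre recombinase (Villin-CreERT2), and the villin promoter limits this Cre to the intestinal epithelium. Tamoxifen was injected at 0.05 g/kg a day for 4 days. The methods place the Cre transgene in mutants and controls and do not say which of its parts the wild-type (WT) mice of the RNA libraries carried, or whether those mice received tamoxifen. The groups were WT on water (4 libraries), KO on water (4 libraries), WT given 2.5% dextran sulfate sodium (DSS), a polymer that injures the colon lining, in the drinking water for 3 days (3 libraries), and KO given the same DSS (3 libraries). All mice were 8 to 14 weeks old and matched for sex and age. The labels number the libraries as replicates without naming the animals, so the p-values below measure the spread between these libraries.

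Myc and its relative Mycn bind the E-box, a short palindromic DNA element, only as dimers with Max, and Myc-Max dimers raise transcription of genes for ribosome building, metabolism and cell division. The Mxd proteins (Mxd1, Mxd3, Mxd4 and Mxi1, also called Mxd2) and Mnt pair with the same Max, occupy the same elements and bring in Sin3 corepressors, so they are counted as Myc antagonists. Mlx is a Max-like partner that dimerizes with the glucose-responsive factors Mlxip (MondoA) and Mlxipl (ChREBP), and also with Mxd1, Mxd4 and Mnt. In the gut, Myc is a Wnt target active in the dividing crypt cells, and Mxd1 is known as an antagonist of differentiated epithelial cells.

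The upstream sequences of the 2 antagonists with the greatest fitted differences between groups, Mxd1 and Mxd3, are shown first, because the comparisons below turn on these genes. Each is 250 bases before the RefSeq start site, read 5′ to 3′ on the gene's strand in GRCm38.p6, with matches to the motifs named below in capitals.
Mxd1, chr6:86669160-86669409, minus strand: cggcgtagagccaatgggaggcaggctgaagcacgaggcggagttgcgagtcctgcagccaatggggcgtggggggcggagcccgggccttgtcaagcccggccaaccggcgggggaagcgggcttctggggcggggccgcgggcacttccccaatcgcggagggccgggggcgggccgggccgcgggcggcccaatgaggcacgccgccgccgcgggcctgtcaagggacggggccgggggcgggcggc
Mxd3, chr13:55329732-55329981, minus strand: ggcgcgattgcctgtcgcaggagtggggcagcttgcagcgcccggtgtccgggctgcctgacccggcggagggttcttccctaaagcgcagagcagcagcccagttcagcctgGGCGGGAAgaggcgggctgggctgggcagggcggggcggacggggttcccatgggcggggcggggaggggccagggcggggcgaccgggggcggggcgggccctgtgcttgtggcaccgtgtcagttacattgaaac
Both are rich in G and C, with 78.4% G or C in Mxd1 and 73.2% in Mxd3, against a median of 52.4% over all windows of that length. The capitals in Mxd3 mark GGCGGGAA, an E2F-type element that began 137 bases before the start site. On either strand, this element was found in the 300-base windows (250 bases before and 50 after a start site) of 2.52% of 27025 genes and in no other matched member. The Mxd1 window held none of the 5 motifs searched.

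Windows were matched for 8 of the 9 members, with 3 start sites for Mxi1. Myc had no entry. The canonical E-box CACGTG, which reads the same on both strands, was in the windows of 4 members (Max, Mxd4, Mnt and Mlx) and of 8.09% of all genes. These 4 matches are shown, in capitals with 12 bases on each side, because they are the element that the members' own proteins bind.
Max, chr12:76962234-76962263, minus strand: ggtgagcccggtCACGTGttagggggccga
Mxd4, chr5:34187912-34187941, minus strand: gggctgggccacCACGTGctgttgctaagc
Mnt, chr11:74830789-74830818, plus strand: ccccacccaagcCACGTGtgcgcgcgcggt
Mlx, chr11:101087238-101087267, plus strand: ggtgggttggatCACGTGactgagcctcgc
The E-box began 3 bases before the start site in Max, 40 in Mlx, 123 in Mnt and 219 in Mxd4. GGCGCC, a BMP-type SMAD element, was in windows of Mycn, Max and Mxi1 and of 13.4% of all genes. The palindromic SMAD element GTCTAGAC (0.248% of genes) and the TCF element CTTTGAT (4.29%) were in no member's window. These matches describe the letters of the windows and say nothing of binding.

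In the mm9 build used for the counts, the genes lie at chr15:61816946-61821929 (Myc), chr12:12942902-12948720 (Mycn), chr12:78038256-78063235 (Max), chr6:86597038-86619153 (Mxd1), chr13:55426529-55431119 (Mxd3), chr5:34516536-34530369 (Mxd4), chr19:53384996-53450300 (Mxi1), chr11:74644422-74659227 (Mnt) and chr11:100948591-100953521 (Mlx). All are protein-coding genes, and counts are summed over exons. Mxd3 overlaps Prelid1, Mlx overlaps Psmc3ip and Mxi1 overlaps Gm10197, each on the other strand. The strand setting of the counting is not given in the sources used here, so reads of these pairs may not be separated.

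Total counts ranged from 12882827 to 26087231 per library. Smad4 was at 115 to 160 CPM (counts scaled to a common library size with the trimmed mean of M values) in WT water, 170 to 183 in WT DSS and 40.6 to 44.4 in KO DSS. In KO water, 3 libraries were at 34.9 to 46.6 CPM, but the library labelled KO water replicate 1 was at 158 CPM, within the WT range, so the members' differences between KO water and another group are given with and without it. Transcripts of the mitochondrial genome took 21.4% to 32.8% of the counts in WT water replicates 3 and 4 and KO water replicate 4, and 4.05% to 8.23% in the other 11 libraries. The library names begin with letters whose meaning is not given, and KO DSS shares none of them with KO water, so that comparison cannot be told apart from whatever the letters stand for.

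All 9 genes were detected in every library, and their order was dominated by antagonists and partners, not by Myc. Per kilobase of annotated exon and averaged over the 14 libraries, Mxd1 was at 67.3 CPM/kb, Max at 65.1 and Mlx at 54.1. Mxd4 followed at 25.7 CPM/kb, Myc at 15.7, Mxi1 at 8.71, Mnt at 5.14, Mxd3 at 3.65 and Mycn at 0.348. The top of this order was not separated, since Mxd1 exceeded Max in 9 of 14 libraries and Max exceeded Mlx in 11. Further down the order was firmer: Mxd4 was above Myc, Myc above Mxi1 and Mxi1 above Mnt in 14 of 14 libraries, although the ranges over all libraries overlapped for each of these pairs. Mycn, the neuronal and embryonic relative of Myc, was the only member whose range did not meet that of its neighbour, with raw counts of 5 to 49 per library.

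**Figure D1:**
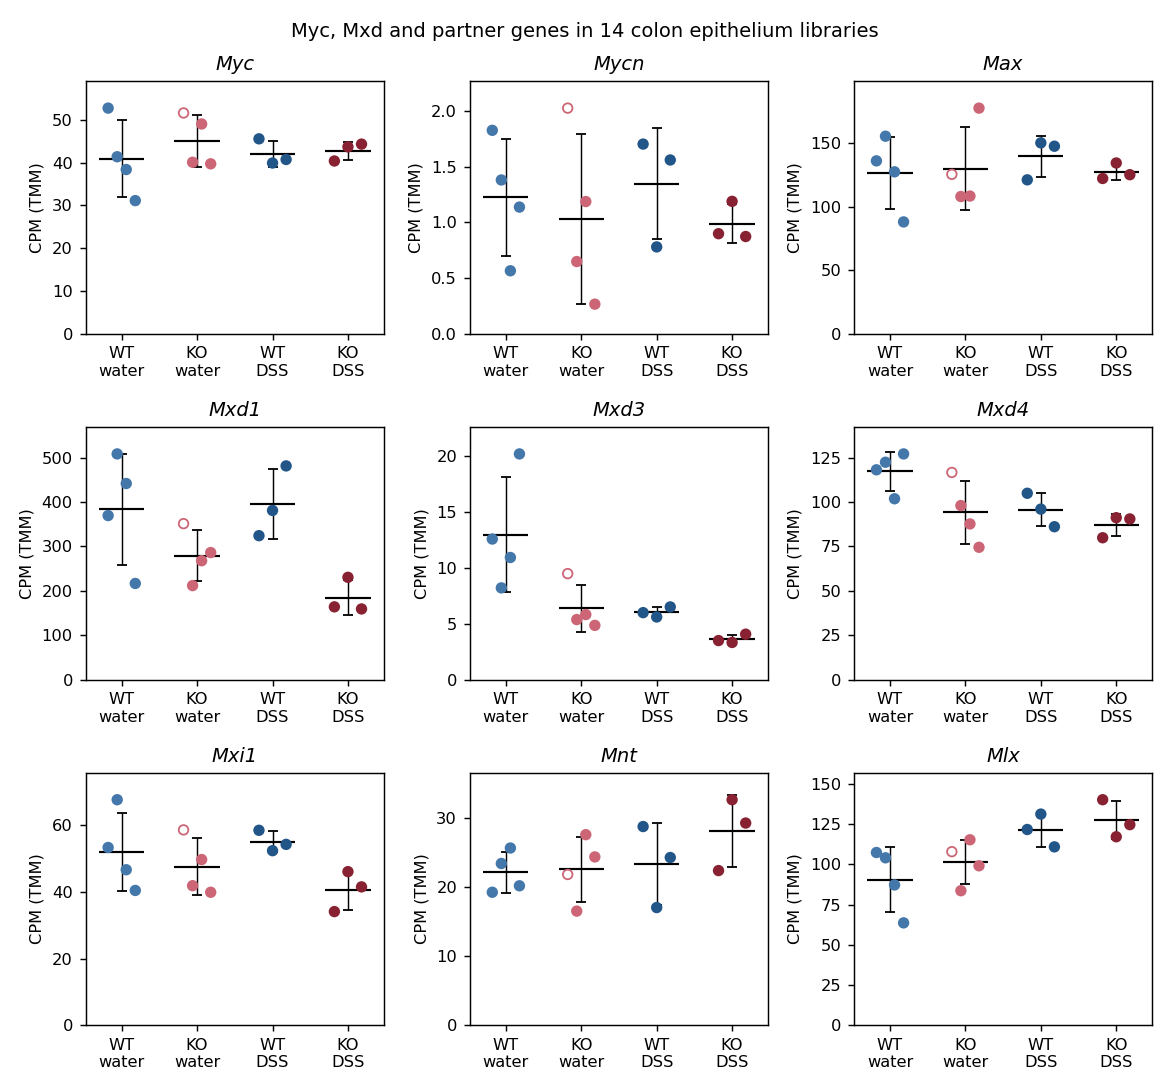
CPM (y axis, linear, from 0) of each of the 9 genes in each library, by group (x axis). Points are libraries, the line is the group mean and the bar 1 SD. The open point is KO water replicate 1. Mxd1 in KO DSS (159 to 230 CPM) lies below every WT DSS library (324 to 481 CPM), while the Myc groups overlap throughout.

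Mxd1, the antagonist most abundant in these libraries, was lower in KO than in WT epithelium after DSS. Its level was 324, 381 and 481 CPM in the 3 WT DSS libraries and 164, 230 and 159 CPM in the 3 KO DSS libraries. Each KO library was below each WT library, and the fitted level was 2.15-fold lower in KO (log2 fold change -1.11, SE 0.18, 95% interval -1.51 to -0.70). This was the 1 member of 9 called after DSS, with a Benjamini-Hochberg adjusted p of 0.033 in edgeR's two-sided quasi-likelihood test, where 0.801% of 14241 genes were called in either direction and 0.442% were called lower. The adjusted p ranged from 4.6e-08 to 0.37 over 12 alternative fits, of which 5 passed 0.05. The call was lost when WT DSS replicate 2 (0.080), WT DSS replicate 3 (0.084), KO DSS replicate 1 (0.10) or KO DSS replicate 3 (0.14) was left out, when all 14 libraries were fitted in 1 model (0.37), when KO water replicate 1 was left out of that model (0.26), and with the replicate number as a block (0.054). The log2 fold change stayed between -1.30 and -0.94 in all 12. Leaving out WT DSS replicate 3 also leaves only libraries whose names begin with D, and it gave the smallest change, -0.94.

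On water, Mxd1 was 369, 508, 442 and 217 CPM in WT and 351, 212, 268 and 286 CPM in KO. These groups overlapped because WT water replicate 4, at 217 CPM, was as low as the KO libraries. The log2 fold change was -0.46 (SE 0.25, adjusted p = 0.30 in edgeR). It was -0.58 (SE 0.27, adjusted p = 0.27) without KO water replicate 1, and -0.84 (SE 0.23, adjusted p = 0.070) among libraries under 20% mitochondrial counts without it. DSS left the WT level near that of water (log2 fold change 0.03, SE 0.25, 95% interval -0.54 to 0.60). In KO, Mxd1 after DSS stood at 0.652 of its water level (log2 fold change -0.62, SE 0.21, adjusted p = 0.72), and -0.49 without KO water replicate 1. The test of whether the DSS response differed between genotypes gave -0.65 on the log2 scale (SE 0.35, adjusted p = 0.66), so the responses were not shown to differ.

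Some markers of the cells in the preparation differed in the same comparison. After DSS, all 9 genes of the colonocyte list had fitted values below 0 in KO against WT, with a median of -0.11. The list also holds Epcam, Cdh1, Vil1 and Krt8, which are general epithelial genes. Its median and sum therefore do not measure colonocytes alone. Krt20 (log2 fold change -0.85, SE 0.14, adjusted p = 0.032), Car4 (-1.03, SE 0.19, adjusted p = 0.045) and Aqp8 (mean 186 CPM in WT and 93.5 in KO, adjusted p = 0.043), genes of surface colonocytes, were called lower in edgeR's test. Slc26a3 was 316, 461 and 458 CPM in WT DSS and 504, 375 and 331 CPM in KO DSS. Car1 was 1419, 979 and 1761 CPM in WT DSS and 1437, 917 and 1527 CPM in KO DSS, so both overlapped. The summed level of the 9 was 13807 to 15232 CPM in WT DSS and 12398 to 14114 in KO DSS. Krt8 alone was 7216 to 7541 CPM in WT DSS and 6671 to 7847 in KO DSS. The goblet cell gene Fcgbp was also called lower (-1.15, SE 0.12, adjusted p = 0.0046), and the 5 goblet markers summed to 12744 to 14466 CPM in WT DSS and 11069 to 11518 in KO DSS. The goblet markers did not move together: 4 of 5 were below 0 (median -0.16), and Muc2, Clca1 and Agr2 overlapped between the groups. Agr2 was 1334, 1542 and 1365 CPM in WT DSS and 2288, 1473 and 1708 CPM in KO DSS. Fibroblast markers were near 0 but higher in KO: the 6 markers summed to 0.276 to 1.90 CPM in WT DSS and 7.30 to 13.1 in KO DSS, where 4 of 6 could be tested and Col1a1, Col1a2 and Col3a1 were called higher. These collagen genes were at 0.046 to 0.253 CPM in WT DSS and met the count filter only through the KO DSS libraries. Their calls therefore add no support beyond the levels themselves. The fibroblast marker Lum was at 0 in every WT DSS library, and Lum and Pdgfra were both at 0 in KO DSS replicates 1 and 2. On water the 6 fibroblast markers summed to 0.889 to 3.93 CPM in WT and 2.95 to 24.7 CPM in KO. Smooth muscle (5 markers, 1.59 to 3.65 CPM), endothelial (4 markers, 4.51 to 6.38), lymphoid (7 markers, 3.82 to 7.55) and myeloid (6 markers, 16.2 to 20.8) sums were low in both DSS groups, with no marker called and Kdr at 0 in every DSS library. Like that of Mxd1, most of these marker calls depended on the libraries used. The Car4 call was lost without any 1 of the 6 DSS libraries, the Krt20 call without any 1 but WT DSS replicate 2, the Aqp8 call without WT DSS replicate 2 or 3 or KO DSS replicate 2 or 3, the Col1a1 call without any 1 WT DSS library and the Col1a2 call without WT DSS replicate 1 or 2, while Fcgbp stayed past the threshold without any 1 library. All 7 of these calls, those of Fcgbp (adjusted p = 0.53) and Col3a1 (0.36) included, were lost with all 14 libraries in 1 edgeR model. The collagen genes could not be tested without a KO DSS library. The part of these shifts in the Mxd1 difference was not tested. In bulk epithelium, fewer cells that express a gene and less of its RNA per cell cannot be told apart.

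Mxd3, the Mxd member known from dividing cells, was scarce, and it was lower in KO than in WT and lower after DSS than on water in all 4 fitted comparisons, with none called by edgeR. On water it was 12.6, 8.20, 10.9 and 20.2 CPM in WT and 9.47, 5.37, 5.81 and 4.85 CPM in KO. After DSS it was 5.99, 5.60 and 6.50 CPM in WT and 3.49, 3.32 and 4.06 CPM in KO. The lowest values of the series were therefore the 3 KO DSS libraries, none of which overlapped another group, and the highest was WT water replicate 4, 1 of the libraries with a high mitochondrial share. The log2 fold change of KO against WT was -1.03 on water (SE 0.32, adjusted p = 0.15) and -0.74 after DSS (SE 0.20, adjusted p = 0.13), and that of DSS against water was -1.12 in WT (SE 0.30, adjusted p = 0.094) and -0.83 in KO (SE 0.30, adjusted p = 0.72), each from edgeR. Without KO water replicate 1, the highest of its group, they were -1.28 on water (SE 0.34, adjusted p = 0.16) and -0.58 for DSS in KO (SE 0.28, adjusted p = 0.77). DESeq2 put the water comparison of genotypes (adjusted p = 0.042) and the DSS response of WT (adjusted p = 0.0094) past the threshold. Among libraries under 20% mitochondrial counts these 2 values shrank to -0.57 (SE 0.33, adjusted p = 0.34) and -0.78 (SE 0.23, adjusted p = 0.13) in edgeR. Raw counts of Mxd3 were 66 to 337 per library.

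Mxi1, the Mxd member also known as Mxd2, was 58.5, 52.4 and 54.3 CPM in WT DSS and 34.1, 46.1 and 41.5 CPM in KO DSS. The groups did not overlap, with a log2 fold change of -0.45 (SE 0.12, edgeR adjusted p = 0.13, DESeq2 adjusted p = 0.044). On water the range was 40.5 to 67.6 CPM in WT and 39.9 to 58.6 CPM in KO, and the difference was -0.13 (SE 0.19, adjusted p = 0.72), or -0.24 (SE 0.20, adjusted p = 0.53) without KO water replicate 1. The genotypes overlapped there, and the genotype difference in the DSS response, -0.32 (SE 0.25, adjusted p = 0.73), was not past the threshold. Mxd1, Mxd3 and Mxi1 were the 3 members of 9 that were lower without overlap in KO after DSS, where 11% of all genes were, and the same 3 were those under an unadjusted p of 0.05, as were 15.7% of all genes in either direction. DESeq2 called 2 of the 9, Mxd1 and Mxi1, and 3.45% of all genes.

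The other 2 antagonists did not pass edgeR's threshold in any comparison. Mxd4 was 86.1 to 105 CPM in WT DSS and 79.9 to 91.1 CPM in KO DSS (log2 fold change -0.14, SE 0.10, 95% interval -0.37 to 0.09). On water it was 102 to 127 CPM in WT and 74.5 to 117 CPM in KO, where the highest KO value was again replicate 1, and the difference was -0.32 (SE 0.17, adjusted p = 0.28), or -0.44 (SE 0.17, adjusted p = 0.23) without that library. Between DSS and water Mxd4 differed by -0.31 in WT (SE 0.13, 95% interval -0.60 to -0.03, adjusted p = 0.17), with overlapping groups, and by -0.13 in KO (SE 0.17), or -0.02 without KO water replicate 1. Mnt, the antagonist thought to be present in dividing and resting cells alike, was 17.0 to 28.7 CPM in WT DSS and 22.4 to 32.6 CPM in KO DSS (0.26, SE 0.20, 95% interval -0.19 to 0.71). Its direction was opposite to that of the 4 Mxd genes in this comparison, though its interval spans 0.

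Myc itself showed no difference beyond the spread between libraries, by genotype or by treatment. It was 45.6, 39.9 and 40.8 CPM in WT DSS and 40.4, 43.7 and 44.4 CPM in KO DSS, and the 2 groups interleaved. The log2 fold change was 0.02 (SE 0.10, 95% interval -0.20 to 0.23), an interval that excludes a change of the size fitted for Mxd1. On water Myc was 52.8, 41.4, 38.4 and 31.1 CPM in WT and 51.6, 40.1, 49.1 and 39.7 CPM in KO (0.14, SE 0.18, 95% interval -0.26 to 0.53). The DSS response was 0.02 in WT (95% interval -0.34 to 0.39) and -0.09 in KO (95% interval -0.42 to 0.24). The signs of the genotype differences and of the WT response changed with the libraries used, as given in the closing section. Without KO water replicate 1, Myc differed by 0.07 on water and by -0.03 between DSS and water in KO. Mycn had fitted values of -0.45 to 0.09 in the 4 comparisons, with 95% intervals that reached from -1.69 to 1.34, and no difference was detectable at its depth. Without KO water replicate 1 its values from KO water were -0.80 against WT water and 0.46 for DSS in KO, where the sign turned.

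Max, the shared partner, was 121, 150 and 148 CPM in WT DSS and 122, 134 and 125 CPM in KO DSS. The groups overlapped (log2 fold change -0.14, SE 0.11, 95% interval -0.38 to 0.10). On water it was 88 to 155 CPM in WT and 108 to 178 CPM in KO (0.03, SE 0.21, and 0.05 without KO water replicate 1), with the lowest and the highest value in 2 libraries of high mitochondrial share, WT water replicate 4 and KO water replicate 4. Without the libraries of over 20% mitochondrial counts the sign turned, to -0.33 (adjusted p = 0.25).

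Mlx, the partner of the Mondo factors, was the member whose water and DSS libraries separated upward in both genotypes. It was 107, 104, 87.2 and 63.6 CPM in WT water and 122, 131 and 111 CPM in WT DSS. In KO it was 108, 83.6, 115 and 99.0 CPM on water and 140, 117 and 125 CPM after DSS. Each DSS library was above each water library of its genotype, by 0.41 on the log2 scale in WT (SE 0.17, adjusted p = 0.17) and 0.31 in KO (SE 0.15, adjusted p = 0.75; 0.34 without KO water replicate 1), and neither passed edgeR's threshold. Among WT libraries under 20% mitochondrial counts the difference was 0.20 (SE 0.11, adjusted p = 0.31). In WT 1 of 9 members (Mlx) was higher without overlap, as were 13.3% of all genes, and 1 (Mxd3) was lower, as were 11.7%. In KO the same 2 genes were Mlx (5.3% of all genes higher) and Mxd3 (3.86% lower). Genotype made a difference of 0.06 after DSS (95% interval -0.17 to 0.30).

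The 4 genes that complete the network in the list used here are Mga, Mlxip, Mlxipl and Mycl, and edgeR called none in any comparison. Mga, a large Max-binding repressor, was 32.6, 28.4 and 33.0 CPM in WT DSS and 40.9, 41.3 and 40.5 CPM in KO DSS. It was higher in KO without overlap both after DSS (log2 fold change 0.38, SE 0.10, adjusted p = 0.12) and on water (0.59, SE 0.19, adjusted p = 0.16), where the KO libraries were 40.7, 38.9, 41.3 and 32.1 CPM and none of them, replicate 1 included, met the WT range of 17.4 to 30.2 CPM. Over all genes, 11.2% were higher without overlap after DSS and 5.24% on water. Of the 4, 1 was higher and 1 lower at an unadjusted p under 0.05 after DSS, beside 7.25% and 8.43% of all genes. The same counts were found on water, beside 21% in either direction. DESeq2 called 1 of the 4 in each, beside 3.45% and 5.46% of all genes. Mlxip, the MondoA partner of Mlx, differed by -0.07 after DSS (SE 0.09, adjusted p = 0.77). Mlxipl, the ChREBP partner, is named after its values were seen: it was 27.9, 26.1 and 27.7 CPM in WT DSS and 17.8, 18.5 and 21.8 CPM in KO DSS (-0.50, SE 0.11, edgeR adjusted p = 0.094, DESeq2 adjusted p = 0.023). Its DSS response in WT was -1.12 (SE 0.32, edgeR adjusted p = 0.099, DESeq2 adjusted p = 0.011), with no overlap. The WT water values were 47.2, 28.7, 72.8 and 85.3 CPM, and the 2 highest were the libraries of high mitochondrial share, while replicate 2 lay close to the WT DSS libraries. On water Mlxipl was 27.0, 28.3, 22.1 and 39.7 CPM in KO, which overlapped the WT values. Its DSS response in KO was -0.62 (SE 0.22, edgeR adjusted p = 0.72), also with no overlap. Over all genes, 11.7% were lower without overlap for DSS in WT and 3.86% in KO. The fitted values of the 2 dimer partners Mlx and Mlxipl had opposite signs in both genotypes.

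**Figure D2:**
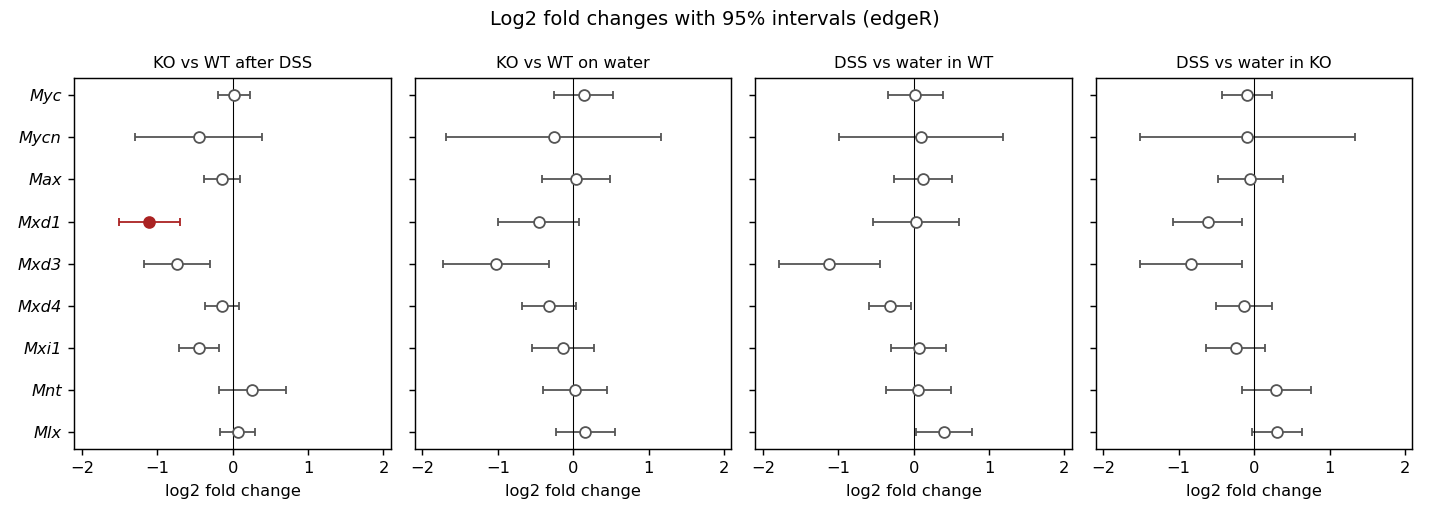
Log2 fold change (x axis) of each gene (y axis) in the 4 comparisons, with 95% intervals from edgeR. The filled red point, Mxd1 in KO against WT after DSS at -1.11, is the 1 value past an adjusted p of 0.05. Myc lies near 0 in all 4 panels, and Mxd3 lies left of 0 in all 4.

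Beyond the DSS comparison of genotypes, edgeR called 0 of the 9 members. On water, where 0.00686% of 14568 genes were called, 1 member (Mxd3) was under an unadjusted p of 0.05, as were 21% of all genes, and DESeq2 called that gene and 5.46% of all genes. In WT, where 0% of 14407 genes were called, 3 members were under 0.05 (Mxd3 and Mxd4 lower, Mlx higher), as were 25.1% of all genes, and DESeq2 called Mxd3 and 12.4% of all genes. In KO, where 0.00694% of 14409 genes were called, 2 members were under 0.05 (Mxd1 and Mxd3, both lower), as were 6.54% of all genes, and DESeq2 called no member and 0.486% of all genes. For the genotype difference in the DSS response, where 0.00661% of 15127 genes were called, no member was under 0.05, as were 7.5% of all genes, and DESeq2 called no member and 0.0529% of all genes. The comparisons share groups, so their values are set side by side and are not independent of each other.

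The balance of antagonist and Myc transcripts can be read per length within each library, where scaling between libraries plays no part. The summed CPM/kb of Mxd1, Mxd3, Mxd4, Mxi1 and Mnt was 6.66 to 10.6 times that of Myc in WT water (mean 8.98, SD 1.72, n = 4) and 5.41 to 6.58 times in KO water (mean 6.05, SD 0.585, n = 4). It was 6.92 to 9.56 times in WT DSS (mean 8.26, SD 1.32, n = 3) and 4.48 to 5.58 times in KO DSS (mean 4.88, SD 0.605, n = 3). The WT and KO ranges did not overlap on either treatment, KO being lower in both. On water they nearly met, at 6.66 in WT water replicate 1 and 6.58 in KO water replicate 1, the library with Smad4 at the WT level. After DSS the nearest values were 6.92 in WT and 5.58 in KO. No share over all genes is available for such a ratio. Mxd1 alone made up 59.9% to 72.0% of the antagonist sum in WT DSS and 46.7% to 55.1% in KO DSS. On water these shares overlapped, at 46.2% to 67.6% in WT and 53.9% to 64.4% in KO. The ratio is given as a description, since RNA levels do not measure the amounts of the proteins or of their dimers.

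**Figure D3:**
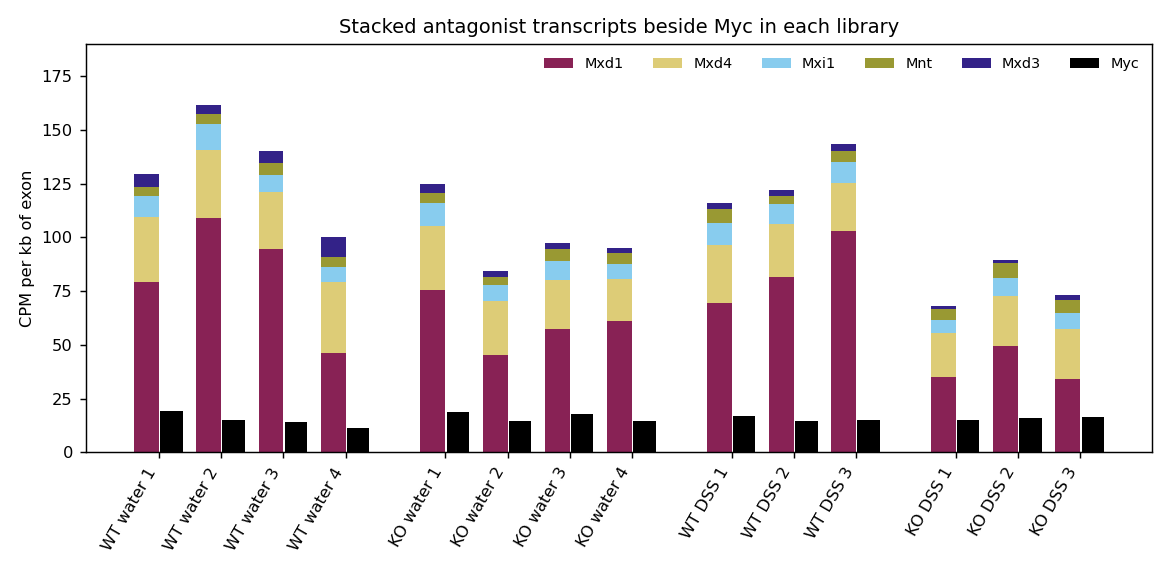
CPM per kilobase of exon (y axis, linear, from 0) in each of the 14 libraries (x axis). The stacked bar is the sum of the 5 antagonists and the black bar is Myc. Mxd1 is the largest segment of the KO DSS and WT DSS stacks, and it is shorter in the 3 KO DSS libraries at a near constant Myc bar.

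Genes known to be raised by Myc were mostly a little higher in KO after DSS, and none was called. Of 48 such genes (nucleolar, ribosome building, metabolic and cell cycle genes), all were tested, 36 had a log2 fold change above 0 where 50.7% of all genes did, and their median was 0.15 beside 0.00 for all genes. At an unadjusted p under 0.05, 13 were higher and 0 lower, where 7.25% of all genes were higher and 8.43% lower. The 2 of highest mean count were Ldha, lactate dehydrogenase A (0.02, SE 0.11), and Eif4a1, an RNA helicase of translation initiation (0.22, SE 0.10, adjusted p = 0.33). DESeq2 called 4 of the 48, all higher, where it called 3.45% of all genes in either direction. They were Gnl3, Nop2, Tfrc and Ccnd2, which are named after their values were seen. Gnl3 (nucleostemin) was 30.4, 31.4 and 30.5 CPM in WT DSS and 51.3, 40.1 and 45.4 CPM in KO DSS, with no overlap and a log2 fold change of 0.56 (SE 0.11, edgeR adjusted p = 0.059). On water the median of the 48 was 0.08 with 31 above 0 (49.4% of all genes). The DSS response had medians of 0.07 in WT, with 28 above 0 (48.5% of all genes), and 0.11 in KO, with 35 above 0 (47%). EdgeR called 0 in each. At an unadjusted p under 0.05, 5 genes were higher and 2 lower on water (21% of all genes in either direction), 5 higher and 3 lower for DSS in WT (25.1% of all genes), and 6 higher and 1 lower for DSS in KO (6.54% of all genes). DESeq2 called 1, 2 and 0 of the 48 in these comparisons, beside 5.46%, 12.4% and 0.486% of all genes. For the genotype difference in the DSS response, 26 of 48 were above 0 (49.4% of all genes) and the median was 0.03. EdgeR and DESeq2 called 0 of the 48 there, so the responses were not shown to differ. The list was chosen with the study's interest in Myc targets known and is not independent evidence of a direction.

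Among 8 genes that Myc is known to repress, Cdkn1a, the cell cycle inhibitor p21, was lower in KO than in WT after DSS. It was 152, 137 and 173 CPM in WT DSS and 56.2, 63.8 and 66.7 CPM in KO DSS, which did not overlap (log2 fold change -1.31, SE 0.11, edgeR adjusted p = 0.0023). This call was lost with all 14 libraries in 1 model (adjusted p = 0.25) and in that model without KO water replicate 1 (adjusted p = 0.095), and it held in the other 10 alternatives. On water the library labelled KO water replicate 1, at 141 CPM, was the highest of the KO values (51.1 to 141 CPM) and within the WT range (129 to 214 CPM). The remaining KO water libraries, at 51.1, 70.3 and 117 CPM, lay below that range. Between DSS and water in KO, Cdkn1a differed by -0.63 (SE 0.31, edgeR adjusted p = 0.75), with overlapping groups. Its genotype difference in the DSS response was -0.52 (SE 0.37, edgeR adjusted p = 0.72). The median of the 8 was -0.37 after DSS, with 5 below 0, all 5 under an unadjusted p of 0.05 (Cdkn1a, Cdkn2b, Gadd45a, Ndrg2 and Tgfbi), and 1 called. Over all genes, 8.43% were lower at that p and 0.442% were called lower. DESeq2, which called 3.45% of all genes, called Tgfbi as well (-1.30, SE 0.28, edgeR adjusted p = 0.083, DESeq2 adjusted p = 0.0056), a gene induced by TGF-beta. Cdkn1a is also known as a gene activated by SMAD and p53 proteins.

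**Figure D4:**
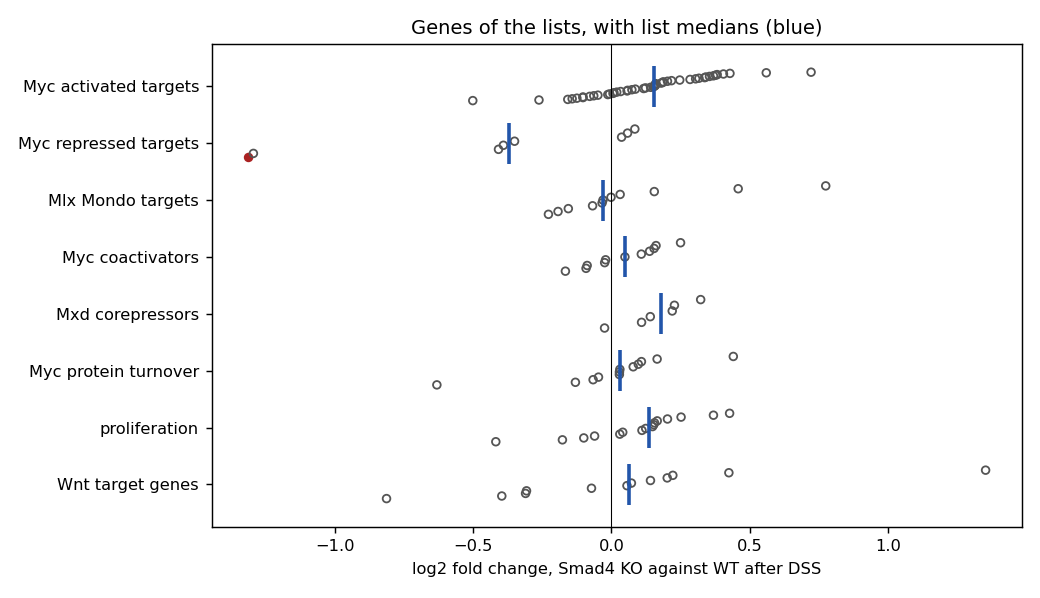
Log2 fold change of KO against WT after DSS (x axis) for the tested genes of 8 lists (y axis). Each point is a gene, the blue line is the list median and red marks genes past an adjusted p of 0.05 in edgeR. Cdkn1a at -1.31 is the 1 red point, and the median of the Myc activated targets is 0.15.

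The other lists around the network gave no call by edgeR after DSS. Among the targets of Mlx and its Mondo partners (11 of 12 tested), the highest counts were those of Acly, ATP citrate lyase (-0.23, SE 0.11, adjusted p = 0.34), and Txnip, a glucose-responsive inhibitor of glucose uptake (-0.03, SE 0.12), and the list median was -0.03. The Sin3 and NCoR corepressors used by Mxd proteins (6 tested) had a median of 0.18, with Hdac1 at 0.32 (SE 0.15, adjusted p = 0.34) and Ncor1 at 0.11 (SE 0.10). Myc coactivators (11 tested) had a median of 0.05, with Ep400, a chromatin remodelling ATPase, at 0.15 (SE 0.09). Genes of Myc protein turnover (12 tested) had a median of 0.03, and the kinase gene Gsk3b (0.03, SE 0.09) and the ubiquitin ligase gene Huwe1 (0.10, SE 0.10) lay close to it. All 4 medians were within 0.2 of the 0.00 of all genes. At an unadjusted p under 0.05 there were 2 Mondo targets higher, 0 corepressors, 0 coactivators, and 1 turnover gene higher and 1 lower, beside 7.25% of all genes higher and 8.43% lower. DESeq2 called 1 gene of these 4 lists and 3.45% of all genes. The gene was the Mondo target Scd1, a fatty acid desaturase, which is named after its values were seen. It was 63.4, 67.1 and 92.7 CPM in WT DSS and 139, 94.2 and 150 CPM in KO DSS, which did not overlap (0.78, SE 0.19, edgeR adjusted p = 0.11, DESeq2 adjusted p = 0.0024).

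Proliferation genes and Wnt targets, the settings in which Myc is usually read, are given for the same libraries. Of 16 proliferation genes, 12 were above 0 in KO after DSS (50.7% of all genes) with a median of 0.14, while the 2 of highest count, Mki67 (-0.42, SE 0.17, adjusted p = 0.28) and Top2a (-0.06, SE 0.14), lay below 0. The lean was also present on water, where 13 of 16 were above 0 in KO (49.4% of all genes) with a median of 0.22. For the genotype difference in the DSS response, 6 of 16 were above 0 and the median was -0.09. Of 12 tested Wnt targets, 7 were above 0 in KO after DSS, with Ephb2 at 0.22 (SE 0.19) and Sox9 at 0.14 (SE 0.13). Between DSS and water the Wnt targets leaned the other way, with 1 of 12 above 0 in each genotype, where 48.5% of all genes were in WT and 47% in KO, and medians of -0.61 in WT and -0.39 in KO, though Myc, itself a Wnt target, was at 0.02 and -0.09. None of these genes was called by edgeR, with 4 Wnt targets lower at an unadjusted p under 0.05 between DSS and water in WT, where 13.3% of all genes were, and 3 in KO, where 3.5% were. DESeq2 called 4 and 0 of them, beside 12.4% and 0.486% of all genes. These 4 were Axin2, Lgr5, Ascl2 and Ephb3, named after their values were seen. In KO against WT after DSS, 2 proliferation genes (Mcm4 and Tyms) were higher and 1 (Mki67) lower at that p, and 1 Wnt target (Lgr5) was higher and 2 (Ascl2 and Ephb3) lower, beside 7.25% of all genes higher and 8.43% lower. Of these DESeq2 called Lgr5, beside 3.45% of all genes. Lgr5, a receptor known as a crypt stem cell marker, was 5.85, 2.57 and 6.12 CPM in WT DSS and 13.1, 11.9 and 12.4 CPM in KO DSS (log2 fold change 1.35, SE 0.28, edgeR adjusted p = 0.071, DESeq2 adjusted p = 0.00011). The 2 groups did not overlap, and no edgeR call was made.

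The genes whose levels ran most closely with each member over the 14 libraries are given as a description. Their points share library depth, mitochondrial share and group, and 11566 genes with a mean of at least 50 counts were searched on log2(CPM + 0.5). For Mxd1 they were Epb4.1l1 (Pearson r = 0.90), a membrane skeleton gene, and Stk10 (r = 0.90), a kinase gene, and for Mxi1 they were Aldh2 (r = 0.90) and Neurl1b (r = 0.90). For Mxd3 they were 4930481A15Rik (r = 0.97) and Cenpm (r = 0.94), a centromere gene, and for Mycn they were the mitosis genes Cdc20 (r = 0.93) and Dlgap5 (r = 0.88). For Mlx they were Rassf1 (r = 0.94) and Plscr1 (r = 0.94), for Mxd4 Smpd1 (r = 0.90) and Hdac5 (r = 0.89), for Max 9130219A07Rik (r = 0.90) and Vasp (r = 0.87), for Mnt Clec16a (r = 0.85) and Ipo4 (r = 0.83), and for Myc 1110008F13Rik (r = 0.90) and Ergic1 (r = 0.87). Among the members themselves, Mxd1 ran with Mxi1 (r = 0.80) and Mxd3 with Mxd4 (r = 0.79), and Mlx ran against Mxd3 (r = -0.72), each over 14 libraries.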

How the data were processed

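Per the labels and the study's methods, polyadenylated RNA of EDTA-isolated colon epithelium was sequenced (150-bp paired reads), and the authors aligned reads to mm9 with Hisat2 (v2.0.5) and deposited raw gene counts from featureCounts (v1.5.0-p3). The annotation and strand setting are not given in the sources used here. Symbols and mm9 positions came from GENCODE M1, and promoter windows from RefSeq (GRCm38.p6). No gene count was altered. Each pair of groups was fitted alone with edgeR 4.0.16, keeping genes that reached 10 counts in 3 or more of its libraries (TMM, quasi-likelihood test, two-sided, Benjamini-Hochberg over all tested genes, threshold 0.05) in R 4.3.3. The genotype difference in the DSS response used all 14 libraries. SEs are the fold change divided by the root of F. DESeq2 1.42.0 and the alternatives in the closing section were tried, and the fits were tested on simulated data. Named genes were the 9 members, Smad4, the called genes of each list (or the 2 of highest mean count where none was called) and 2 neighbours per member. Of these, 1 gene is not reported here. The members and lists were chosen with earlier results of these data known. Total counts of 12882827 to 26087231 per library limit precision for low genes such as Mycn.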

Additional observations from a re-analysis of the deposited data

Results flagged for a closer look

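Smad4 in the library labelled KO water replicate 1 was at 158 CPM, while the other 3 libraries of its group were at 34.9 to 46.6 CPM. Its gap to the nearest of the others was 0.906 of the group's range, above Dixon's 95% critical value for 4 samples. It was the only one of 20 such group checks (the 9 members and Smad4 in the 2 groups of 4) past that value, and chance alone passes about 1 in 20. The check uses the values within a group only. The WT water libraries were at 115 to 160 CPM of Smad4. KO water replicate 1 also had the highest KO water values of Myc (51.6 CPM), Mycn (2.03), Mxd1 (351), Mxd3 (9.47), Mxd4 (117) and Mxi1 (58.6), each within or next to the WT water range. For Myc (39.7 to 49.1), Mxd1 (212 to 286) and Mxi1 (39.9 to 49.7) the other 3 were within or next to that range too. For Mycn they were at 0.266 to 1.19, partly below it. For Mxd3 (4.85 to 5.81) and Mxd4 (74.5 to 98.0) they lay below it. The reason for the values of KO water replicate 1 was not tested.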

How the results depend on the processing

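For KO against WT after DSS, Mxd1, Mxd3, Mxd4, Mxi1, Mnt, Max and Mycn kept their direction in all 12 alternatives, the Mxd1 call was lost in 7 and a Mxi1 call was gained with DESeq2. Over all comparisons, 614 of the members' 692 alternative values kept direction and call, 66 changed sign, 7 lost a call and 5 gained one. The cause of the changes below was not tested.

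The number of genes called depended on the fit. For KO against WT after DSS it was 114, against 492 with DESeq2, 345 without the filter on low counts, 2 with all 14 libraries in 1 model, 8 in that model without KO water replicate 1, and 26 to 97 without 1 library, the lowest without KO DSS replicate 2. For KO against WT on water it was 1, against 796 with DESeq2, 1276 with all 14 libraries, 55 without the filter, 289 with the library name letters as a block, and 1 to 1816 without 1 library (1816 without KO water replicate 4, 13 without KO water replicate 1). For DSS against water in WT it was 0, against 1789, 457 without the filter, 3 among libraries named D, and 0 to 455 without 1 library (455 without WT water replicate 2, 25 without WT water replicate 4). For DSS against water in KO it was 1, against 70, 10 with all 14 libraries, 19 without the filter, and 1 to 3 without 1 library. For the genotype difference in the DSS response it was 1, against 8, 2 without the filter, and 1 to 6 without 1 library. Restricting to libraries under 20% mitochondrial counts, chosen after seeing the data, gave 106 on water, 1 for DSS in WT and 30 for the genotype difference, and leaving out KO water replicate 1 as well gave 999 on water, 3 for DSS in KO and 793 for the genotype difference.

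Correlations of the deviations of same-numbered libraries were -0.11 to 0.08, except for 0.42 between WT water replicate 4 and KO water replicate 4. The names of both begin with MP, and both had a high mitochondrial share. Apart from these, the replicate numbers showed no pairing of the libraries. With the replicate number as a block, 52 genes were called after DSS (Mxd1 adjusted p = 0.054 in edgeR), 460 on water, 27 for DSS in WT and 13 for DSS in KO, and the log2 fold changes of Myc -0.062, Max -0.0044, Mxd1 -0.16 and Mxi1 -0.0091 for DSS against water in WT, Max 0.15 for DSS against water in KO and Mycn 0.038 for the genotype difference in the DSS response had the opposite sign.

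Signs of small log2 fold changes also turned elsewhere. Among libraries under 20% mitochondrial counts they were Max -0.33 and Mlx -0.024 for KO against WT on water, Myc -0.16, Mycn -0.25, Max -0.056, Mxd1 -0.14 and Mxi1 -0.13 for DSS against water in WT, Max 0.14 for DSS against water in KO and Myc 0.0030, Max 0.20, Mxd3 -0.17 and Mlx 0.093 for the genotype difference in the DSS response. Without KO water replicate 1 as well they were Myc -0.048, Max -0.40 and Mlx -0.059 for KO against WT on water, Mycn 0.068 and Max 0.21 for DSS against water in KO and Myc 0.069, Mycn 0.31, Max 0.26 and Mlx 0.13 for the genotype difference in the DSS response. With the name letters as a block they were Mxi1 0.029 and Mnt -0.15 for KO against WT on water. Among libraries named D they were Myc -0.13, Mycn -0.37, Max -0.097, Mxd1 -0.31 and Mxi1 -0.12 for DSS against water in WT. Leaving out 1 library at a time gave ranges of Myc -0.016 to 0.078 and Mlx -0.0077 to 0.13 for KO against WT after DSS. For KO against WT on water they were Mycn -0.80 to 0.051, Max -0.15 to 0.15, Mxi1 -0.24 to 0.022 and Mnt -0.085 to 0.14. For DSS against water in WT they were Myc -0.074 to 0.16, Mycn -0.14 to 0.37, Max -0.0025 to 0.24, Mxd1 -0.16 to 0.20, Mxi1 -0.025 to 0.22 and Mnt -0.11 to 0.25. For DSS against water in KO they were Mycn -0.40 to 0.46 and Max -0.14 to 0.14. For the genotype difference in the DSS response they were Mycn -0.51 to 0.35, Max -0.29 to 0.00076, Mxd3 -0.016 to 0.53 and Mlx -0.19 to 0.034.

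Depth limits Mycn, with 5 to 49 counts per library. Over the 12 alternatives for KO against WT after DSS, 0 to 4 Myc activated targets were called higher and 0 to 2 Myc repressed targets lower.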
